A study of Homo sapiens with 4 samples.

Results

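Of the 275 m6A sites listed in chromatin-associated RNA of K562 cells, 12 (4.36%) lay in 5 genes that carry small nucleolar RNAs (snoRNAs) within their bodies: GAS5 with 4 sites, and SNHG3, TAF1D, RPL5 and EIF4G2 with 2 each. The sites are all those listed on the strand of 1 of these genes within its span, a rule that uses no level, but the genes themselves were picked among hosts with a listed site, with earlier results of these data known. Of these sites, 10 fell inside an embedded snoRNA, 1 in a host exon and 1 in a host intron. K562 is a human chronic myeloid leukaemia line, here wild type in all libraries, although a second label field calls the cells a hepatoma line. The 4 libraries, 1 per condition, were made by m6A-SAC-seq, in which the enzyme MjDim1 allyl-labels m6A so that reverse transcriptase misreads the base and the mutation frequency gives an m6A level. They covered ribosomal RNA-depleted, chromatin-associated input RNA and the RNA that RBFOX2 pulled down from it, each with MjDim1 and each left untreated. The table lists 2 levels per site, in percent, without naming the library of either, so they are called the first and the second level here and no direction between input and pull-down was drawn. With 1 library per condition and no read counts there was no replicate check, no test across conditions, and no known depth behind a level. The table holds no expression values with which the cell line could be compared.

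SnoRNAs are short nucleolar RNAs that are mostly spliced out with an intron of a host gene and trimmed back to their ends. Those of the C/D family carry a box C and a box D near their ends and guide 2′-O-methylation of other RNAs, chiefly ribosomal RNA. Those of the H/ACA family fold into hairpins and guide pseudouridylation, and SNORA73 is also known for a role in processing ribosomal RNA. GAS5 and SNHG3 are non-coding hosts, whereas RPL5 encodes a protein of the large ribosomal subunit, EIF4G2 a translation initiation factor and TAF1D a subunit of the RNA polymerase I factor SL1.

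The sequences show where the sites lie in the C/D snoRNAs of these hosts. Each is the annotated snoRNA, 5′ to 3′, read from hg38, and the capitals mark the deposited 5-mer whose middle A is the listed site. They are shown so that each site can be placed against the letters of box C (UGAUGA) and box D (CUGA). SNORD80 lies at chr1:173864833-173864903, SNORD79 at chr1:173865350-173865430 and SNORD76 at chr1:173866635-173866715, all on the minus strand in GAS5. SNORD6 lies at chr11:93731502-93731574 on the minus strand in TAF1D, SNORD21 at chr1:92837289-92837383 on the plus strand in RPL5, and SNORD97 at chr11:10801467-10801608 on the minus strand in EIF4G2.
SNORD80: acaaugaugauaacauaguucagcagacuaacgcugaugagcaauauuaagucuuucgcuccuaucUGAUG
SNORD79: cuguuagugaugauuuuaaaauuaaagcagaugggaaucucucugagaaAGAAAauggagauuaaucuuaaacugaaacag
SNORD76: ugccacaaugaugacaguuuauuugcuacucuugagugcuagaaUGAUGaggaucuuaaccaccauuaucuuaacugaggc
SNORD6: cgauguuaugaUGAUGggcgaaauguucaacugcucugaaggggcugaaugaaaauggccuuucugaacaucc
SNORD21: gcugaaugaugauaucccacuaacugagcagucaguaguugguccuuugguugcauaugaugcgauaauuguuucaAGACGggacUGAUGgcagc
SNORD97: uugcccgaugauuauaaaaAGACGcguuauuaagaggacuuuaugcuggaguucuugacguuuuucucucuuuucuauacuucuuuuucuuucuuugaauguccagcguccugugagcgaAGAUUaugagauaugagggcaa

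Of the remaining 4 sites, 3 are shown in windows of 29 nt with the same capitals. The first 2 lie in H/ACA snoRNAs: SNORA73B of SNHG3 (window chr1:28508653-28508681, plus strand) and SNORA25 of TAF1D (window chr11:93730569-93730597, minus strand). The third lies outside any annotated snoRNA, in GAS5 beside SNORD78 (window chr1:173865681-173865709, minus strand). The fourth, also outside a snoRNA, lies in the first intron of SNHG3.
SNORA73B: ccacaacguugaAGAUGaagcugggccuc
SNORA25: cgcugugaccaaAGAUGgaaguucucuau
GAS5 beside SNORD78: ugagcauguuugGAACGggguuuguguaa

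The 5 host genes hold 24 annotated snoRNAs, 14 of the C/D and 10 of the H/ACA family, and 8 of them had a listed site, 6 C/D and 2 H/ACA. Their C/D snoRNAs held 8 of the sites and their H/ACA snoRNAs 2. SNORD21 and SNORD97 held 2 sites each and the other 6 snoRNAs 1 each. GENCODE release 44 as used here lists no snoRNA in GAS5, so the 11 snoRNAs of that gene were taken from RefSeq, and they include the 3 with a site. In the plot of sites along each snoRNA, the sites lay near the 3′ end in SNORD80 and SNORD21, near the 5′ end in SNORD6, towards both ends in SNORD97 and further inside the other 4.

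**Figure D1:**
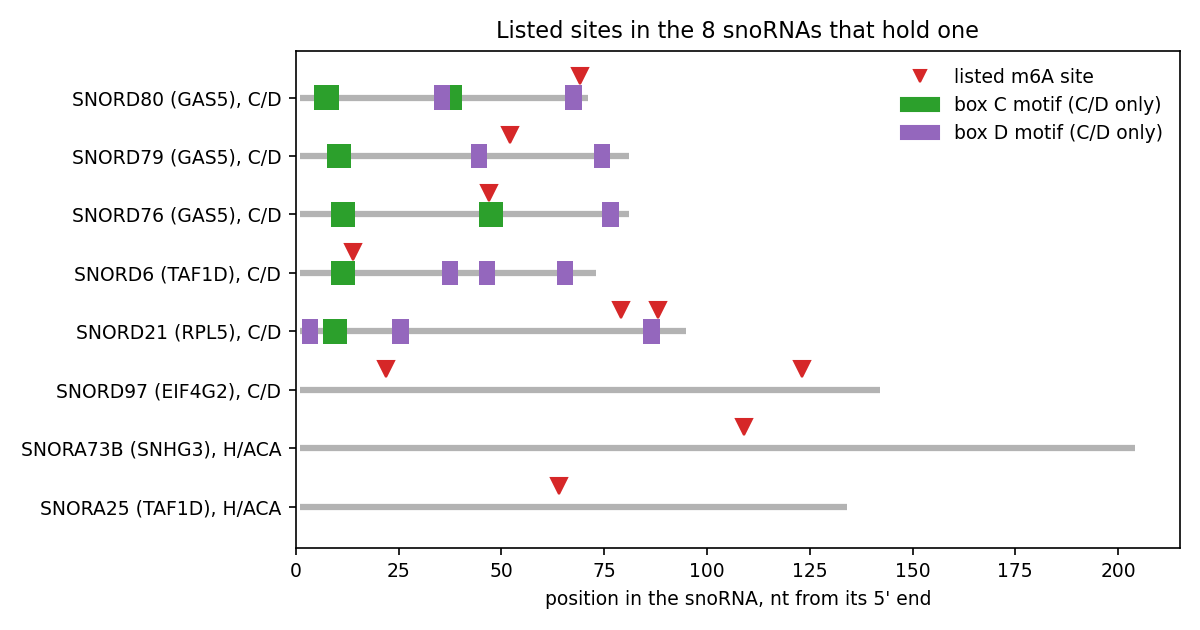
Position of the listed m6A sites (red triangles) in the 8 snoRNAs with a site, in nt from the 5′ end; grey lines are the annotated snoRNAs, green boxes copies of UGAUGA (box C motif) and purple boxes copies of CUGA (box D motif), both drawn for C/D snoRNAs. Sites in SNORD80 and SNORD21 touch the last CUGA and those in SNORD76 and SNORD6 a UGAUGA, while SNORD97 holds neither motif.

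GAS5 (growth arrest-specific 5, ENSG00000234741.10, chr1:173858559-173868882, minus strand) is a non-coding RNA whose introns carry 10 C/D snoRNAs among 11 snoRNAs in all. Its site with the highest levels lay outside them, at position 173865695 of chromosome 1, 9 nt upstream of SNORD78. The first level there was 12.3% and the second 17.0%, a ratio of 1.38. That position is intron 6 of the canonical transcript and an exon of 1 of the 91 annotated transcripts. A GCAUG, the core of the sequence that RBFOX proteins bind, began 11 nt upstream of the site, and this was the 1 site of the 12 with a GCAUG within 50 nt.

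The 3 snoRNA sites of GAS5 had nearly equal levels on both sides of the comparison. SNORD80 (position 173864835, intron 8) had a first level of 10.7% and a second of 10.8%. Its site was the A of the last CUGA, at nt 69 of 71, the box D motif 2 nt from the annotated 3′ end. SNORD76 (position 173866669, intron 3) had 5.23% and 5.38%, at nt 47 of 81, in an internal UGAUGA. SNORD79 (position 173865379, intron 7) had 5.81% and 5.21%, at nt 52 of 81, 6 nt past a CUGA. The second level was thus 1.01 and 1.03 times the first in SNORD80 and SNORD76 and 0.896 times it in SNORD79. These positions are also exonic in 14, 15 and 16 of the 91 GAS5 transcripts, in that order for SNORD80, SNORD76 and SNORD79, so reads from retained introns and from the snoRNA itself cannot be told apart.

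RPL5 (ENSG00000122406.14, chr1:92832013-92841924, plus strand) had both its sites in SNORD21, in intron 5 of the canonical transcript, and none in its own exons outside the snoRNA. The site at position 92837376 was again the A of the last CUGA, at nt 88 of 95, with a first level of 8.94% and a second of 10.5%. The site at position 92837367 lay 9 nt before it, at nt 79, with 8.32% and 8.79%. The ratios were 1.18 and 1.06. The paired sites are close enough for 1 read to cover both, so they are not independent measurements. Each position is also exonic in 1 of the 11 RPL5 transcripts, so reads from host RNA and from the snoRNA cannot be told apart.

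EIF4G2 (ENSG00000110321.19, chr11:10797050-10808940, minus strand) likewise had both sites in 1 snoRNA, SNORD97 in intron 14. At nt 22 of 142 (position 10801587) the first level was 6.62% and the second 7.87%, a ratio of 1.19. At nt 123 (position 10801486) they were 6.12% and 8.11%, a ratio of 1.32. The site at nt 22 lay closer to the 5′ end and that at nt 123 closer to the 3′ end, and the levels of both sites lay within a narrow range. SNORD97 holds no exact UGAUGA or CUGA, so neither site could be placed against a box. Each position is also exonic in 1 of the 31 EIF4G2 transcripts, so host RNA and the snoRNA cannot be told apart here either.

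TAF1D (ENSG00000166012.17, chr11:93729948-93784391, minus strand) held the member with the largest difference. In SNORA25, an H/ACA snoRNA, the site at position 93730583 (nt 64 of 134) had a first level of 5.62% and a second of 14.3%, which is 2.54 times the first and 8.67 percentage points more. In SNORD6, the site at position 93731561 (nt 14 of 73) had 5.11% and 8.18%, a ratio of 1.60, and was the last A of the UGAUGA that starts at nt 9. These were the 2 highest ratios of the 12. Both snoRNAs lie beyond the canonical transcript of TAF1D, and the SNORA25 site overlaps an untranslated exon of 1 of the 22 transcripts.

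SNHG3 (ENSG00000242125.3, chr1:28505980-28510892, plus strand) carries the near-identical H/ACA snoRNAs SNORA73A and SNORA73B. The SNORA73B site at position 28508667 (nt 109 of 204, intron 2) had a first level of 5.96% and a second of 5.03%, the lowest second level of all 275 sites. The site in intron 1 had 7.60% and 10.9%, a ratio of 1.43. RCC1, which encodes the exchange factor of the GTPase Ran, spans both sites on the same strand, so RNA of SNHG3 and of RCC1 cannot be told apart there.

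No site was listed in SNORA73A. Aligned over their length, the paralogues shared 192 of 206 columns (93.2%). The SNORA73B site, at nt 109, faced nt 111 of SNORA73A, also an A, but within the 5-mer AAAUA in place of AGAUG. In SNORA73A the A is thus preceded by another A rather than by G. Because the copies are so similar, reads could be assigned to either, and the SNORA73B level is uncertain to that extent. The whole copies are given here with the 5-mer in capitals, SNORA73B at chr1:28508559-28508762 and SNORA73A at chr1:28507366-28507571, both on the plus strand.
SNORA73B: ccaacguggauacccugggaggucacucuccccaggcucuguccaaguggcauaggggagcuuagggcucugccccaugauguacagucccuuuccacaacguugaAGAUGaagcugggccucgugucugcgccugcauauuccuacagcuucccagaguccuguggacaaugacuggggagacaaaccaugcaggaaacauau
SNORA73A: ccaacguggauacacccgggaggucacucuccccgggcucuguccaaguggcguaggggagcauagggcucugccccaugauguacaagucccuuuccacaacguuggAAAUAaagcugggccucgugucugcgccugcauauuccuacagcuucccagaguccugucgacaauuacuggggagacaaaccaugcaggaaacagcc

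The 31 nt around each of the 12 sites occurred once in the genome. Near copies, of at least 50 of 61 nt at 90% identity or more, were found for the SNHG3 intron site (8), SNORA25 (3) and SNORA73B (1), and each had an A at the matching position. For the other 9 sites none was found.

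**Figure D2:**
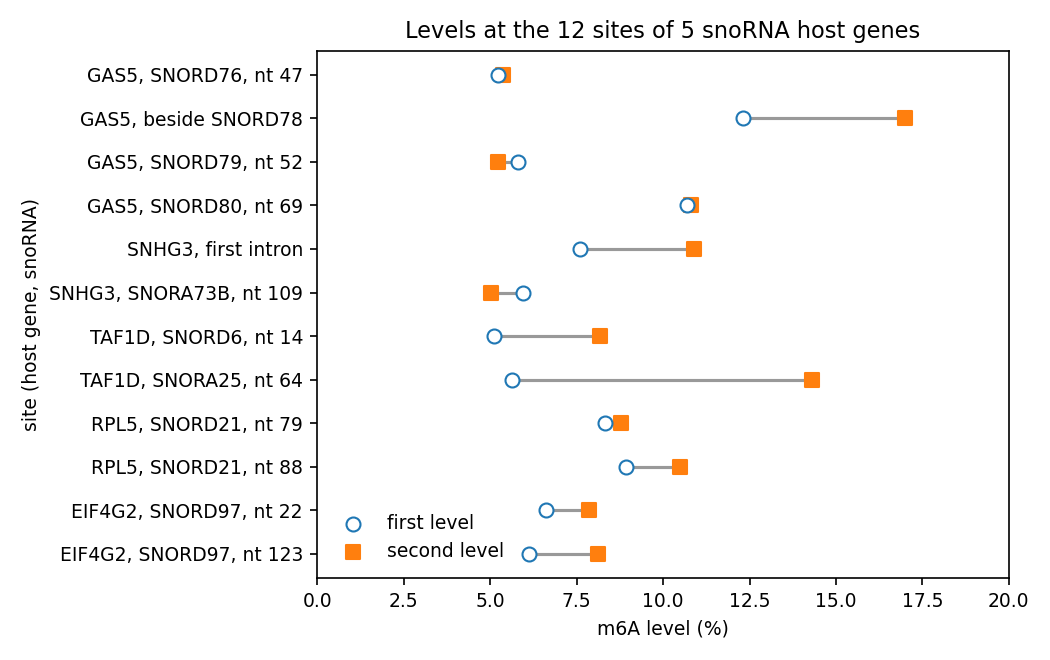
First (open circles) and second (filled squares) m6A level, in percent, at the 12 sites of the 5 host genes, 1 value per site and level, joined by a line; nt is the position in the snoRNA. Most pairs sit below 11%, and the widest gap is that of SNORA25, from 5.62% to 14.3%.

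Levels at the 12 sites were low within the table. The first level ranged from 5.11% to 12.3% with a median of 6.37%, against 10.9% over all 275 sites. The second level ranged from 5.03% to 17.0% with a median of 8.48%, against 22.7% over all sites. All 12 second levels were below the median of the table and 10 were below its lower quartile of 12.7%. Both levels were below 10% at 7 of the 12 sites (58.3%) and at 43 of the 275 (15.6%). The study's methods keep sites with a mutation frequency above 5%, and every listed level in the table is above 5%. These sites thus lie close to that 5%. The methods also require a minimum coverage and a minimum number of mutated reads, which can set a higher bound where coverage is low. Coverage per site is unknown, so the part of this in the difference from the rest of the table was not tested.

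The second level was at least 2 times the first at 1 of the 12 sites, SNORA25 (8.33%, 95% Wilson interval 1.49 to 35.4%), whereas 42.5% of all sites passed that fold. A fold of 1.5 was passed by 2 sites, SNORA25 and SNORD6 (16.7%), against 59.6% of all sites. A rise of 5 percentage points was seen at 1 site (8.33%), against 62.2%. The direction alone did not set the host gene sites apart, since the second level was the higher at 10 of the 12 (83.3%) and at 85.8% of all sites. A second level at or under 0.5 times the first was listed at 0 of the 12 and at 0.364% of all sites. As every listed level is above 5%, a site with a first level below 10% could not be listed so. That held for 10 of the 12 sites and 125 of the 275, so no share is drawn from this 0. Intervals and limits cover counting error only, and sites that share a snoRNA or host are not independent. The part of coverage in these shares was not tested.

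The median ratio of second to first level was 1.18 (range 0.845 to 2.54) over the 12 sites and 1.73 over all sites, and 11 of the 12 lay below the latter. For the 10 sites inside snoRNAs the median was 1.12. The levels differed by less than 1 percentage point at 5 of the 12 sites and at 41 of the 275.

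**Figure D3:**
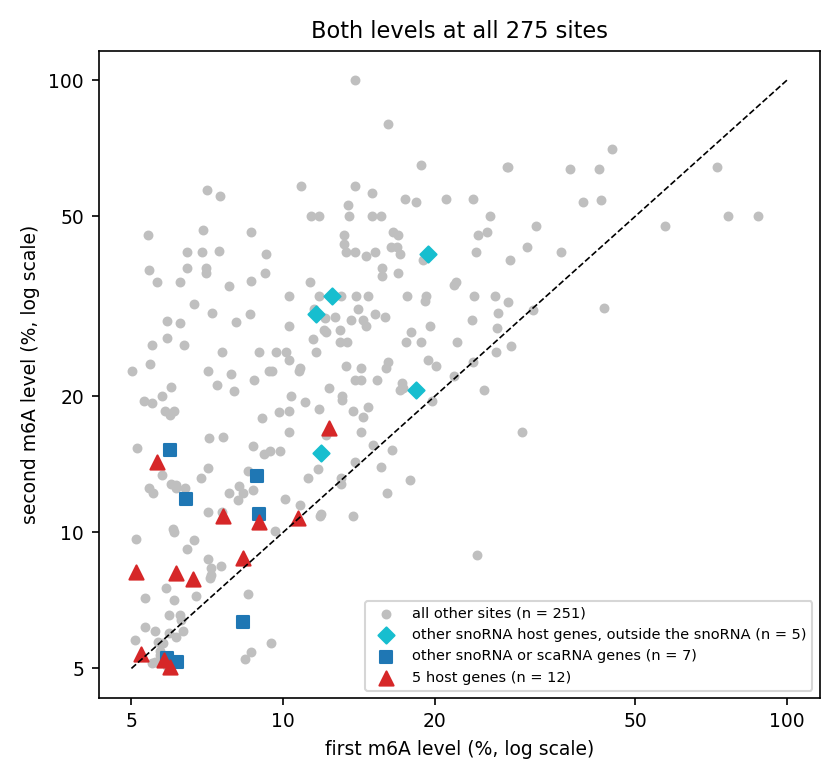
Second against first m6A level at all 275 sites, in percent on log axes; red triangles are the 12 sites of the 5 host genes, blue squares 7 sites in other snoRNA or scaRNA genes, cyan diamonds 5 sites elsewhere in other host genes and grey circles the remaining 251. The dashed line marks equal levels; the triangles lie in the lower left, with 11 of 12 first levels and all 12 second levels below the medians of the table.

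The remaining snoRNA loci were taken from GENCODE alone, without the RefSeq snoRNAs used inside the 5 hosts. GENCODE lists 991 genes for snoRNAs or scaRNAs, the Cajal body relatives of snoRNAs, and 383 genes hold one on their strand when GAS5 is added from RefSeq, of which 16 had a listed site, the 5 hosts included. Outside the 5 hosts, 7 sites lay in snoRNA or scaRNA genes, with a median first level of 6.41%, a median second level of 11.0% and a median ratio of 1.23. Another 5 sites lay in further host genes but outside the snoRNA, with medians of 12.5% and 30.4% and a median ratio of 2.13. The remaining 251 sites had medians of 11.5% and 24.0% and a ratio of 1.82. They include 1 site within the bounds of a RefSeq snoRNA, SNORD119, which was not counted as a snoRNA site because it lies outside the 5 hosts. Sites within snoRNAs thus lay at low levels in the 5 hosts and in the others. The 5 sites elsewhere in other hosts (2 in 1 gene, ratios 1.13 to 2.67) had medians above those of the rest. The 2 sites of the 5 hosts outside a snoRNA did not share those levels: their second levels, 10.9% and 17.0%, were below the median of the table, and their median ratio was 1.40. The table gives no coverage, so the part of sequencing depth in this was not tested.

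**Figure D4:**
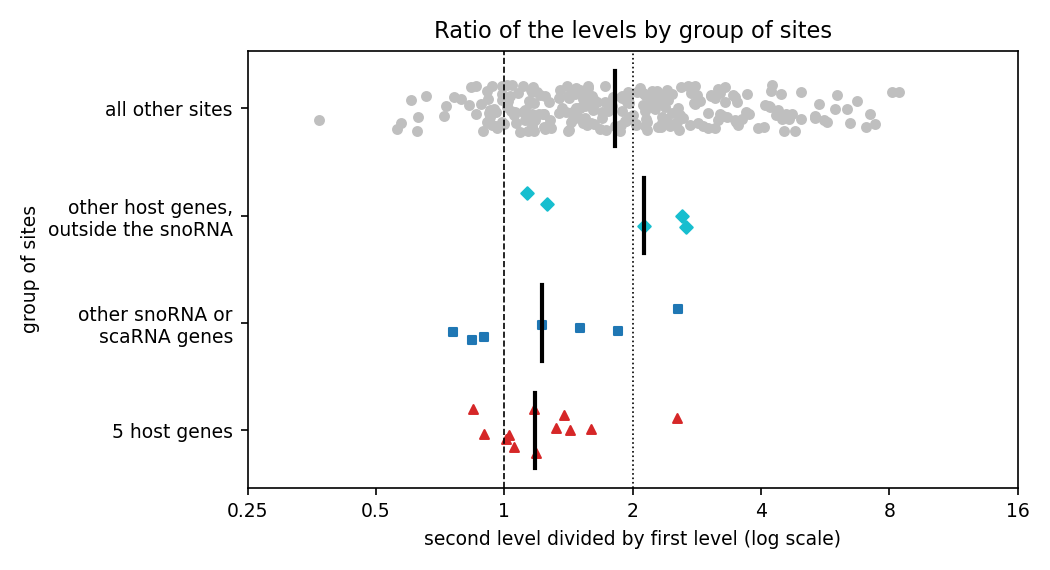
Ratio of the second to the first m6A level (log axis) by group of sites; each point is a site, black bars are medians, the dashed line marks a ratio of 1 and the dotted line a ratio of 2. The median of the 5 host genes, 1.18, lies near that of other snoRNA or scaRNA genes, 1.23, and 1 of the 12 host gene points passes 2.

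None of the 12 sites lay in DRACH, the consensus of the METTL3-METTL14 methyltransferase, which allows a share of up to 25%; 93 of the 275 sites did (33.8%). Among all 17 sites in snoRNA or scaRNA genes 2 were in DRACH, those of SNORD87 and SNORD60. UGAUG, here with the site at its A, was the 5-mer of 4 of the 12 sites (33.3%), in SNORD76, SNORD80, SNORD6 and SNORD21, and of 23 of all sites (8.36%). AGAUG was the 5-mer of 2 of the 12 (16.7%), in SNORA73B and SNORA25, close to its share of 17.5% over the table. The base before the site was G at 11 of the 12 (91.7%), again close to the 90.9% of all sites. A GCAUG within 50 nt on the same strand was found at 1 of the 12 sites (8.33%) and at 92 of all sites (33.5%); at the 10 snoRNA sites there was none, which allows a share of up to 30%.

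The snoRNA sequences show a further regularity, noticed after the positions and levels had been seen and so given without a test. All 10 snoRNA sites had 1 of 2 contexts: UGAUG at 4, and the last A of AAGA at the other 6, in SNORD79, SNORA73B, SNORA25, SNORD21 and both times in SNORD97. AAGA held 6 of the 12 sites and 61 of all sites (22.2%). Over all 17 sites in snoRNA or scaRNA genes, UGAUG held 6 and AAGA 8, while the sites of SCARNA5 and SCARNA10 had neither. The 8 snoRNAs with a site contain 242 adenines, 79 of them after a G. They contain 8 copies of AAGA, of which 6 were listed, and 12 copies of UGAUG, of which 4 were listed. In the 24 embedded snoRNAs the numbers were 6 of 14 for AAGA and 4 of 27 for UGAUG.

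Against the boxes, 4 of the 8 sites in C/D snoRNAs fell inside a UGAUGA or CUGA, those of SNORD76, SNORD6, SNORD80 and SNORD21. Several of these snoRNAs hold more than 1 copy of such letters. Every A of UGAUGA and CUGA follows a G, and so did the listed A at all 10 snoRNA sites. The share of their adenines after G that lie within these letters was not counted, so no excess is drawn from this. The last CUGA was followed by UG in 4 of the embedded C/D snoRNAs, SNORD80, SNORD21, SNORD77 and SNORD74, and the first 2 had a listed site at its A. Beyond these hosts, SNORD35A of RPL13A (first level 8.96%, second 11.0%) and SNORD18A of RPL4 (8.88% and 13.3%) also had a site there. The first levels of the 4 box D sites ranged from 8.88 to 10.7% and the second levels from 10.5 to 13.3%. Of the 323 annotated SNORD genes, 313 contain a CUGA. UG follows the last of them in 20, and 4 of these 20 had a listed site at its A. In the other 293 no site was listed at that A, but only 5 of them had a listed site anywhere, and how many were read is unknown, so no share at that A can be drawn from this. The 2 further snoRNAs are given with the 5-mer in capitals, SNORD35A at chr19:49491175-49491260 on the plus strand and SNORD18A at chr15:66503243-66503314 on the minus strand.
SNORD35A: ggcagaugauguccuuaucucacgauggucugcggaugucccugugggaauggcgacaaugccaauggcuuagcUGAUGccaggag
SNORD18A: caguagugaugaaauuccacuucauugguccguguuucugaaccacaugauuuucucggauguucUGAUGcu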

How the data were processed

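m6A-SAC-seq was performed on 4 libraries of K562 RNA, 1 per condition. As described in the study's methods, the authors clipped adapters with Cutadapt 2.10, removed duplicates by molecular identifiers, aligned reads to hg38 with STAR 2.7.3a and called mutations with VarScan, filtering on coverage, mutated reads and how far MjDim1-treated libraries differed from untreated ones. The authors deposited 2 levels in percent per site and their ratio, and in all 275 rows the ratio equalled the second over the first within 0.001. Columns with values of single samples numbered 0. Depth per library and coverage per site are unknown, so the precision of a level could not be given. Sites that failed the filters are not analysed here.

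Sites were assigned on their strand with GENCODE release 44. Inside the 5 hosts alone, RefSeq snoRNAs were added where GENCODE lists none. The RefSeq table used gives no strand for any snoRNA, and that of the host was taken. A site inside a snoRNA counted as such, otherwise as exonic where any host transcript has an exon. The 5-mer matched hg38 at 275 of 275 sites. The sequence around the SNHG3 intron site is not reported here. The named sites were all those in the 5 hosts and those in other snoRNA or scaRNA genes. Called meant a ratio of at least 2. Motif copies overlap: UGAUG is part of UGAUGA, and CUGA may precede UG to hold UGAUG; the strand of the RNA was searched. Python 3.11.15, numpy 2.4.6, pysam 0.24.0, samtools 1.23.1, blastn 2.17.0 and matplotlib 3.10.9 were used, and the scripts were tested on simulated data. The alternatives were wider snoRNA bounds, other annotations, means, 1 site per cluster, a level minimum, other thresholds and leaving out each host. The members and lists were chosen with earlier results of these data known.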

Additional observations from a re-analysis of the deposited data

How the results depend on the processing

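Of 27 alternative values, 23 stayed within 1.5 times of the main value or, for shares, within its Wilson interval, and 4 moved beyond it. Reversal was defined for the ratio alone, as the other side of 1, and occurred 0 times. Some values could hardly move. All 12 sites passed the filter for 1 exact copy of 31 nt. Canonical exons could not change the number inside a snoRNA, because snoRNAs were assigned first. The Wilson interval for shares, 1.49 to 35.4%, was wide. The ratio had a median of 1.18 and a mean of 1.29 over the 12 sites, and medians of 1.12 to 1.26 in the sets with sites left out; the level minimum of 10% left 2 sites. The share of sites at 2 times the first level or more was 8.33%, and 0% without TAF1D, whose SNORA25 was the single site counted. Sites inside a snoRNA numbered 10, and 11 with bounds extended by 10 nt, which take in the GAS5 site beside SNORD78. With GENCODE snoRNAs only, which omit those of GAS5, they numbered 7. Exonic sites outside a snoRNA numbered 1, then 0 with extended bounds or with canonical exons, and 4 with GENCODE snoRNAs only. The annotation alternatives by source and the snoRNA-only values were chosen after seeing the data. No paired analysis was possible because each condition had 1 library and the levels carry no library name. Unknown coverage limits every single level.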

Other observations

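Other snoRNA and scaRNA sites were as follows. SNORD87 of SNHG6 and SNORD60 of SNHG19, both C/D snoRNAs, had a site at the A directly before the last CUGA, with first levels of 6.14% and 5.88% and second levels of 5.15% and 5.28%. An A precedes the last CUGA in 64 of 323 SNORD genes, and these were the 2 with a site at it. The scaRNA SCARNA10 of NCAPD2 had sites of opposite direction: 5.97% and 15.2% at nt 12 of 330, and 8.34% and 6.32% at nt 268. SCARNA5 of ATG16L1 had 6.41% and 11.9% at nt 170 of 276. A UGAUG site with 5.08% and 5.77% lay within the bounds of SNORD119, a RefSeq snoRNA. It was counted among the remaining sites because RefSeq snoRNAs were used only inside the 5 hosts. Its strand was not given, as for all RefSeq snoRNAs used here.

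At the A of CUGAUG, 5 sites outside annotated snoRNAs had first levels of 5.94 to 30.4% and second levels of 5.98 to 42.9%, a wider range than at the 4 box D sites.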
